A study of Mus musculus with 19 samples.

Results

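Stromal progenitors are the cells of white adipose tissue from which new fat cells arise, and 8 genes that are widely used to mark them were read across 4 diet groups of mice: Pdgfra, Pdgfrb, Dpp4, Pi16, Cd34, Ly6a, Thy1 and Dlk1. The genes were picked by symbol from a table of 24237 genes, and all 8 were found in it. RNA sequencing was performed on epididymal white adipose tissue (eWAT), the visceral fat pad beside the testis, of male C57Bl6/J mice that were 9 to 10 weeks old when a diet of 17 weeks began. The diets drew 10% (low-fat diet, LFD) or 60% (high-fat diet, HFD) of their energy from palm oil fat and held 0.21% (NormMg) or 0.03% (LowMg) magnesium oxide by weight. NormMg-LFD had 4 sequenced mice, and LowMg-LFD, NormMg-HFD and LowMg-HFD had 5 each. These were a random subset of the 12 mice fed each diet, a further NormMg-LFD library had failed quality control, and each library came from 1 mouse.

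Adipose stroma is layered. PDGFRα and PDGFRβ are the receptor tyrosine kinases for the platelet-derived growth factors, and cells with PDGFRα on their surface include the fibro-adipogenic cells that can turn into fat cells. Cells that carry DPP4, a dipeptidyl peptidase of the cell surface, and PI16, a member of a family of secreted cysteine-rich proteins, lie in the connective tissue around the fat lobules and are regarded as early, uncommitted progenitors. CD34, a sialomucin, Ly6a (Sca-1) and Thy1, both small lipid-anchored surface proteins, and Dlk1 (Pref-1), a Delta-like protein that holds preadipocytes undifferentiated, are used in cell sorting to separate progenitors from other cells, although endothelial cells, T cells and mural cells also use some of them. Reads were taken from whole tissue, so fewer cells of a type and less RNA per cell cannot be told apart in any value below.

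By the GENCODE M21 annotation of GRCm38, the build of the authors' mapping, Pdgfra lies at chr5:75152292-75198215, Dpp4 at chr2:62330073-62412231, Pi16 at chr17:29317680-29330593, Cd34 at chr1:194938819-194961279, Ly6a at chr15:74994877-74998031, Thy1 at chr9:44043384-44048579 and Dlk1 at chr12:109452823-109463336, and the values cover each whole gene. Expression was given in FPKM, the number of reads scaled to transcript length and to the mapped reads of the library, which allows levels of different genes to be set side by side. Ly6a was the most abundant marker, with a mean of 124 FPKM over the 19 mice, and Cd34 followed at 66.9 FPKM. Pi16 averaged 27.7 FPKM, Pdgfrb 20.3 FPKM, Pdgfra 16.3 FPKM and Thy1 15.3 FPKM. Dpp4, at 6.88 FPKM, ranked 8815 among the 24237 genes, against rank 574 for Ly6a. Dlk1 was close to the limit of the assay, at 0.462 FPKM.

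**Figure D1:**
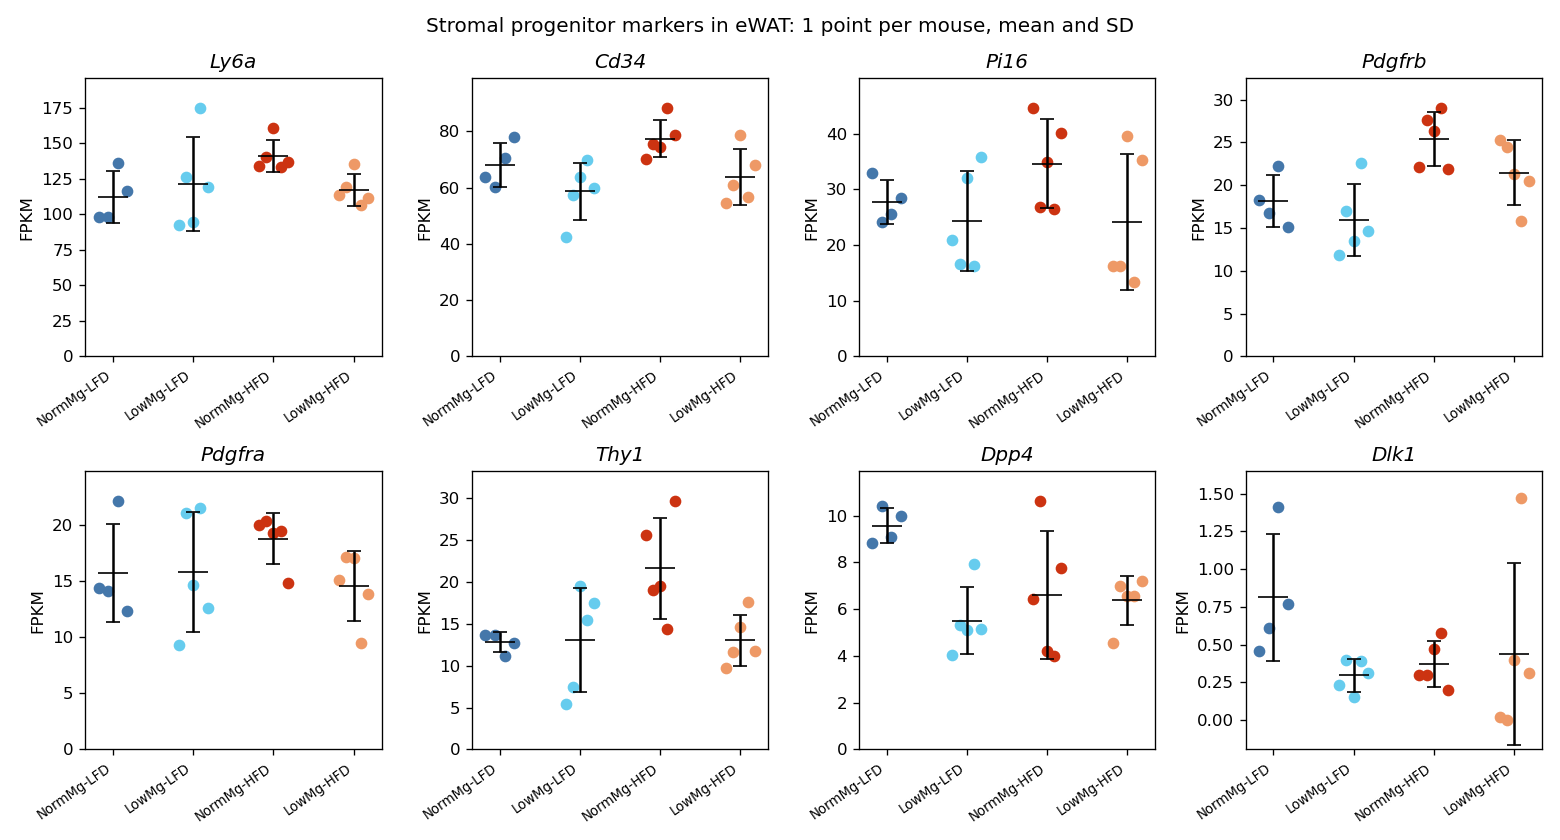
FPKM of the 8 stromal progenitor markers (1 panel per gene, vertical axis in FPKM, each with its own scale) in the 4 diet groups. Each point is 1 mouse, the horizontal bar is the group mean and the whiskers are 1 SD. Dpp4 lay between 8.83 and 10.4 FPKM in the 4 NormMg-LFD mice, and Dlk1 did not exceed 1.47 FPKM in any mouse.

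Depth was even, at 12986441 to 13027028 reads per library, of which 86.12 to 90.41% mapped. Several libraries stood apart in genes of neighbouring tissues. The library labelled NormMg-LFD replicate 3 had 1415 FPKM summed over 9 exocrine pancreas markers, where the other 18 libraries had 12.9 to 52.0 FPKM. The study's methods leave out a LowMg-HFD mouse for pancreatic tissue, and the labels do not say which. The 5 LowMg-HFD libraries had 20.6 to 44.8 FPKM for these genes. LowMg-LFD replicate 4 had 128 FPKM summed over 8 epididymis markers, against at most 3.61 FPKM in the others. LowMg-HFD replicate 4 had the highest median FPKM over all genes, 3.99, where the next highest, NormMg-LFD replicate 4, had 3.23 and the other libraries 1.60 to 2.41. Mesothelial markers, genes of the cell layer that covers the fat pad, summed to 44.2 to 123 FPKM in NormMg-LFD, 23.4 to 121 FPKM in LowMg-LFD, 12.5 to 27.1 FPKM in NormMg-HFD and 21.9 to 109 FPKM in LowMg-HFD, with medians of 92.2, 38.6, 22.5 and 38.3 FPKM in that order. The upper ends in LowMg-LFD and LowMg-HFD were single libraries, replicate 4 of each, with the next highest at 41.8 and 52.7 FPKM. Replicate 4 of NormMg-LFD, LowMg-LFD and LowMg-HFD had high values of keratin genes of this list. Krt8 was at 44.7, 35.6 and 43.2 FPKM and Krt18 at 26.6, 23.7 and 26.4 FPKM, in that order. Cd24a, a gene of another list, was at 38.1, 27.5 and 33.2 FPKM in these libraries and at most 17.0 FPKM in the others. Upk3b was at 7.87, 15.2 and 4.97 FPKM in them and Msln at 3.20, 6.62 and 5.11 FPKM. NormMg-LFD replicate 5 had 44.1 and 16.2 FPKM for Upk3b and Msln, with Krt8 at 3.45 FPKM. The summed value is therefore not read as a level of mesothelium. NormMg-LFD replicates 4 and 5, at 123 and 117 FPKM, stay among the 16 mice described next. Those mice thus still hold a library, NormMg-LFD replicate 4, with the keratin and Cd24a values of 2 libraries that were left out. The part of these transcripts in the results was not tested. The counts and medians over the markers, and the markers at or near the threshold, are also given for the 16 mice that remain without NormMg-LFD replicate 3, LowMg-LFD replicate 4 and LowMg-HFD replicate 4.

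Differences were tested with limma on log2(FPKM + 1), with Benjamini–Hochberg adjustment over the 8336 genes whose mean in a group exceeded 8 FPKM with at least 4 mice above it, and an adjusted p below 0.05 was called. Of the 8 markers, 7 entered this test. Dpp4 entered it only through NormMg-LFD, the group in which it was highest, so that its differences from that group, and the interaction, which contains it, are favoured by this selection. Dlk1 did not enter.

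The effect of the HFD at normal Mg2+ was the comparison of NormMg-HFD with NormMg-LFD. Of the 7 tested markers, 1 rose, Pdgfrb, and none fell. Over all genes tested, 24.6% rose and 12.8% fell in this comparison. The median log2 difference of the 7 markers was 0.29, against 0.07 over all tested genes (0.23 against 0.07 in the 16 mice). At an unadjusted p below 0.05 there were 4 markers of 7, Pdgfrb, Thy1, Dpp4 and Ly6a, where 45.8% of all genes reached that level. The 16 mice gave the same 4 markers, and the count was 2 after median centring and without NormMg-LFD replicate 3 or NormMg-HFD replicate 3.

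Pdgfrb, the receptor of perivascular and stromal cells, stood at 18.3, 16.8, 22.3 and 15.1 FPKM in NormMg-LFD replicates 2 to 5 and at 22.2, 27.6, 26.3, 29.0 and 21.9 FPKM in NormMg-HFD replicates 1 to 5. A single low-fat mouse, replicate 4, reached the range of the high-fat mice. The group means were 18.1 ± 3.06 (SD, n = 4) and 25.4 ± 3.21 FPKM (SD, n = 5), and the log2 difference was 0.47 ± 0.16 (SE; limma, adjusted p = 0.0305). The call was also made in the 16 mice, with a log2 difference of 0.44 and limma adjusted p = 0.0228. It was lost when single libraries of either group were left out: the limma adjusted p was 0.0539, 0.0775 and 0.1005 without NormMg-LFD replicates 2, 3 and 5, and 0.0611, 0.0586 and 0.0722 without NormMg-HFD replicates 2, 3 and 4. It was lost as well after each library was centred on its median, with 0.37 on the log2 scale and limma adjusted p = 0.0580, a step that lowered every gene's difference in this comparison by 0.10.

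Pdgfra, the broader stromal receptor, showed 14.4, 14.1, 22.1 and 12.3 FPKM in NormMg-LFD and 20.0, 20.4, 19.3, 19.5 and 14.8 FPKM in NormMg-HFD. The groups overlapped, and the log2 difference of 0.27 had a 95% confidence interval from -0.19 to 0.72 (limma, adjusted p = 0.358). Over 29 alternatives it ran from 0.16 to 0.43, with limma adjusted p from 0.137 to 0.622.

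Thy1, a surface glycoprotein of fibroblasts and T cells, was at 13.6, 13.7, 11.2 and 12.7 FPKM in NormMg-LFD, the tightest of its groups, and at 25.6, 19.1, 19.5, 14.4 and 29.7 FPKM in NormMg-HFD. Every high-fat mouse exceeded every low-fat mouse, a separation seen for 32.1% of all tested genes in this comparison. The log2 difference was 0.68 ± 0.28 (SE), and the call was missed at limma adjusted p = 0.0688, but made without NormMg-HFD replicate 4 (limma, adjusted p = 0.0401) or LowMg-LFD replicate 1 (limma, adjusted p = 0.0289). It was not called in the 16 mice, at 0.71 with limma adjusted p = 0.0922. T cell markers, none of which met both parts of the test's minimum, summed to 8.40 to 14.9 FPKM in NormMg-LFD and 14.1 to 42.1 FPKM in NormMg-HFD. Their part in the Thy1 values was not tested.

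Dpp4 lay on the other side. NormMg-LFD mice had 8.83, 10.4, 9.07 and 9.98 FPKM and NormMg-HFD mice 6.45, 10.6, 4.23, 4.01 and 7.75 FPKM. The high-fat group was spread widely, with 1 mouse, replicate 2, above all low-fat mice and the other 4 below them. The log2 difference was -0.54 ± 0.22 (SE; limma, adjusted p = 0.0562). Without NormMg-HFD replicate 2 the difference was -0.72 with limma adjusted p = 0.00890, and it was also called without NormMg-HFD replicate 5 (limma, adjusted p = 0.0442) or LowMg-LFD replicate 4 (limma, adjusted p = 0.0453). After median centring it was -0.65 with limma adjusted p = 0.0232. In the 16 mice it was -0.51 with limma adjusted p = 0.110. As Dpp4 was tested only through NormMg-LFD, the selection favours the calls above. With a minimum of 1 FPKM, which Dpp4 exceeded in every mouse, it was -0.54 with limma adjusted p = 0.0620.

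For the 3 most abundant markers the groups overlapped. Ly6a had 98.2, 97.95, 136 and 117 FPKM in NormMg-LFD and 134, 140.5, 161, 134 and 137 FPKM in NormMg-HFD, with a log2 difference of 0.34 (limma, adjusted p = 0.0814). It was called without NormMg-LFD replicate 4 (limma, adjusted p = 0.0349) or LowMg-LFD replicate 4 (limma, adjusted p = 0.0273), but not in the 16 mice, where the difference was 0.28 (limma, adjusted p = 0.0965). After quantile normalisation it was 0.14 (limma, adjusted p = 0.462). Ly6a belongs to a family of closely similar Ly6 genes, and short single-end reads can be split between them, so its level is uncertain. Cd34 had 63.8, 60.1, 70.7 and 77.9 FPKM against 70.3, 75.4, 74.5, 88.2 and 78.7 FPKM, a log2 difference of 0.19 (limma, adjusted p = 0.281). Over 29 alternatives the Cd34 difference ran from 0.06 to 0.25, with limma adjusted p from 0.0963 to 0.736. Pi16 had 32.9, 24.2, 25.5 and 28.4 FPKM against 44.6, 26.8, 34.97, 26.5 and 40.1 FPKM, a log2 difference of 0.29 (limma, adjusted p = 0.469).

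The effect of Mg2+ on the HFD was the comparison of LowMg-HFD with NormMg-HFD. None of the 7 markers passed the threshold in either direction, where 5.58% of all tested genes rose and 12.9% fell. For 6 of the 7 the estimate was below 0, and the median log2 difference was -0.29, against -0.04 over all tested genes (-0.24 against -0.06 in the 16 mice). At an unadjusted p below 0.05 there were 3 markers, Thy1, Cd34 and Pi16, where 32.4% of all genes reached that level. This count was 1, Thy1, in the 16 mice, where 31.8% of all genes reached it. It was also 1 after median centring and without LowMg-HFD replicates 2 or 4, and 0 without LowMg-HFD replicate 1 or NormMg-HFD replicate 5. No marker separated the groups, against 12.8% of all genes. The NormMg-HFD mice enter both this comparison and the one before it, so that opposite signs in them are not independent of each other.

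**Figure D2:**
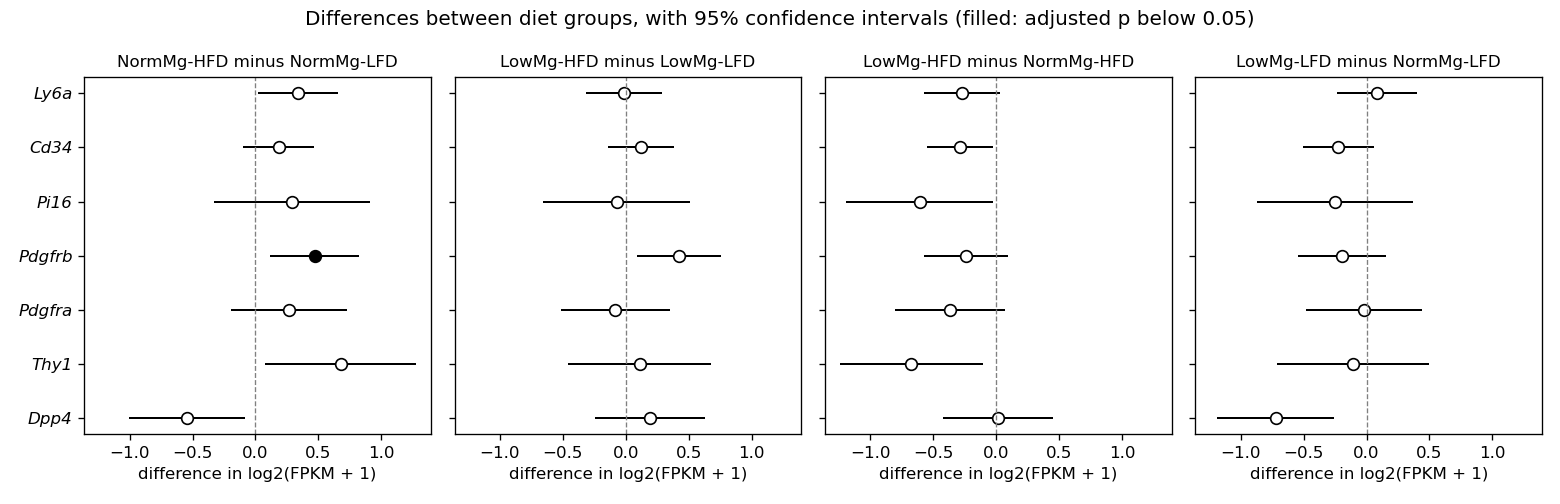
Difference in log2(FPKM + 1) between diet groups (horizontal axis) for the 7 tested markers, 1 panel per comparison, with 95% confidence intervals from limma as lines. The single filled point, with an adjusted p below 0.05, is Pdgfrb in NormMg-HFD minus NormMg-LFD at 0.47, and the lowest estimate, -0.72, is Dpp4 in LowMg-LFD minus NormMg-LFD.

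Thy1 had 9.73, 11.6, 14.6, 17.6 and 11.7 FPKM in LowMg-HFD replicates 1 to 5. Only replicates 3 and 4 reached the lowest NormMg-HFD mouse, and the log2 difference was -0.67 ± 0.27 (SE; limma, adjusted p = 0.0853). With the 2 HFD groups fitted alone, Thy1 (adjusted p = 0.0363) and Ly6a (adjusted p = 0.0479) were called lower by limma. Without LowMg-LFD replicate 1, a library outside the comparison, Thy1 was called as well (limma, adjusted p = 0.0386). The log2 difference of Thy1 in the 16 mice was -0.78 (limma, adjusted p = 0.0741).

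Pi16 fell into separate levels within LowMg-HFD: replicates 1, 2 and 4 had 16.2, 16.2 and 13.5 FPKM, and replicates 3 and 5 had 39.6 and 35.3 FPKM. The SD of 12.3 FPKM around a mean of 24.2 FPKM was the widest of the 4 groups for this gene. The log2 difference from NormMg-HFD was -0.61 ± 0.28 (SE; limma, adjusted p = 0.133), and without replicate 3 it was -0.81 with limma adjusted p = 0.0491. Among the 16 mice it was -0.44 (limma, adjusted p = 0.290).

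Cd34 was at 54.4, 60.8, 78.6, 56.6 and 68.1 FPKM in LowMg-HFD, with replicate 3 inside the NormMg-HFD range and the other 4 below it. Its log2 difference was -0.29 ± 0.12 (SE; limma, adjusted p = 0.110). Ly6a was at 113, 119, 135, 106 and 112 FPKM, with a log2 difference of -0.27 ± 0.14 (SE; limma, adjusted p = 0.192). Replicate 3 again lay within the NormMg-HFD range and the other 4 mice below it. Cd34 differed in the 16 mice by -0.25 (limma, adjusted p = 0.184) and Ly6a by -0.24 (limma, adjusted p = 0.171).

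The receptors overlapped between the HFD groups. Pdgfra had 15.1, 17.2, 17.0, 9.51 and 13.9 FPKM in LowMg-HFD, and Pdgfrb had 25.3, 24.5, 21.3, 15.8 and 20.5 FPKM. Both were lowest in replicate 4, the library with the highest median FPKM over all genes. The log2 differences were -0.37 for Pdgfra (limma, adjusted p = 0.224) and -0.24 for Pdgfrb (limma, adjusted p = 0.300), and in the 16 mice they were -0.23 and -0.14. Dpp4 had 4.55, 7.01, 6.58, 6.55 and 7.20 FPKM and a log2 difference of 0.01, with a 95% confidence interval from -0.41 to 0.44.

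On the LFD, low Mg2+ was compared in LowMg-LFD against NormMg-LFD. None of the 7 markers was called, and of all tested genes 0% rose and 0% fell by limma, with 6.56% at an unadjusted p below 0.05. The median log2 difference of the 7 markers was -0.20, against -0.06 over all tested genes (-0.19 against -0.08 in the 16 mice). Dpp4 was the only marker at that unadjusted level. Without LowMg-LFD replicate 4 the count of markers there was 3, and in the 16 mice it was 3, Dpp4, Cd34 and Pdgfrb, where 10.2% of all genes reached it. Dpp4 had 4.03, 5.34, 5.10, 7.92 and 5.16 FPKM in LowMg-LFD, and all 5 mice were below the lowest NormMg-LFD mouse at 8.83 FPKM. Groups were separated in 1.79% of all tested genes, but as Dpp4 was tested only because NormMg-LFD exceeded the minimum, nothing is read from this share. The means were 5.51 ± 1.44 (SD, n = 5) and 9.57 ± 0.746 FPKM (SD, n = 4), and the log2 difference was -0.72 ± 0.22 (SE; limma, adjusted p = 0.740), or -0.81 in the 16 mice with limma adjusted p = 0.386. With a minimum of 1 FPKM the limma adjusted p was 0.765. The Dpp4 means in NormMg-HFD and LowMg-HFD were 6.61 and 6.38 FPKM, and the NormMg-HFD range, 4.01 to 10.6 FPKM, covered that of NormMg-LFD.

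The other markers had wide ranges in LowMg-LFD. Thy1 ranged from 5.47 and 7.48 FPKM in replicates 1 and 2 to 19.5, 15.5 and 17.4 FPKM in replicates 3 to 5. Pi16 was at 20.9, 16.6, 32.0, 16.3 and 35.8 FPKM, and Pdgfra at 9.35, 21.1, 14.7, 21.6 and 12.6 FPKM. Pdgfrb was at 11.8, 17.0, 13.5, 22.6 and 14.6 FPKM, Cd34 at 42.6, 57.5, 63.7, 69.7 and 59.9 FPKM, and Ly6a at 92.3, 127, 94.6, 175 and 119 FPKM. Pdgfra, Pdgfrb, Cd34, Ly6a and Dpp4 were all highest in replicate 4, the library with epididymis transcripts. Over these 6 markers the log2 differences from NormMg-LFD lay between -0.25 and 0.09. For the 16 mice they lay between -0.35 and -0.11, with Cd34 at -0.35 and Pdgfrb at -0.35 (limma, adjusted p = 0.450 for both).

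The HFD was also compared with the LFD at low Mg2+. None of the 7 markers was called, where 12.4% of all tested genes rose and 3.51% fell, and no marker separated the groups, against 9.3% of all genes. Pdgfrb was the only marker at an unadjusted p below 0.05, a level that 29.6% of all genes reached, with means of 21.5 ± 3.75 (SD, n = 5) and 15.9 ± 4.19 FPKM (SD, n = 5) and a log2 difference of 0.42 ± 0.16 (SE; limma, adjusted p = 0.0694). In the 16 mice Pdgfrb rose by 0.65 (limma, adjusted p = 0.00515), without LowMg-LFD replicate 4 alone it rose by 0.55 (limma, adjusted p = 0.0145), and without LowMg-HFD replicate 4 alone by 0.52 (limma, adjusted p = 0.0233). The other 6 markers had log2 differences from -0.08 to 0.19, and the median over the 7 was 0.11, against 0.10 over all genes (0.17 against 0.11 in the 16 mice).

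Whether the Mg2+ effect differed between the diets was tested as an interaction. No marker was called, while 0.492% of all tested genes had a positive and 0.756% a negative interaction. The largest estimate in size was that of Dpp4, 0.74 ± 0.30 on the log2 scale (SE; limma, adjusted p = 0.171), with the selection through NormMg-LFD named above. It was the only marker at an unadjusted p below 0.05, a level that 20.4% of all genes reached (17.4% in the 16 mice, where Dpp4 was again the only marker). This count was 2 without NormMg-LFD replicate 4 or LowMg-LFD replicate 3, 3 without LowMg-LFD replicate 1 and 0 after quantile normalization. The median over the 7 markers was -0.35, against 0.01 over all genes, and in the 16 mice -0.06, against 0.02.

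To see whether any marker moved apart from the broad stromal receptor, each gene's log2(FPKM + 1) was taken relative to that of Pdgfra in the same mouse. None of the 6 remaining markers was called by limma in any of 4 comparisons. At an unadjusted p below 0.05 there were Dpp4 in both comparisons with NormMg-LFD and Pdgfrb in LowMg-HFD against LowMg-LFD. Of all genes, 28.7% reached that level for LowMg-HFD against NormMg-HFD, 0.804% for LowMg-LFD against NormMg-LFD, 27.6% for NormMg-HFD against NormMg-LFD and 14.9% for LowMg-HFD against LowMg-LFD. Every ratio shares the Pdgfra values of the mice, so the genes are not independent in these shares. Without the ratio 6.56% reached that level for LowMg-LFD against NormMg-LFD, and nothing is read from Dpp4 beside the 0.804%. Of all genes relative to Pdgfra, 7.47% were called for LowMg-HFD against NormMg-HFD, 0% for LowMg-LFD against NormMg-LFD, 15.9% for NormMg-HFD against NormMg-LFD and 5.31% for LowMg-HFD against LowMg-LFD. The mean log2 ratio of Dpp4 to Pdgfra was -0.63 ± 0.41 (SD, n = 4) in NormMg-LFD, -1.34 ± 0.29 (SD, n = 5) in LowMg-LFD, -1.44 ± 0.57 (SD, n = 5) in NormMg-HFD and -1.06 ± 0.41 (SD, n = 5) in LowMg-HFD. NormMg-HFD differed from NormMg-LFD by -0.81 ± 0.29 (SE; limma, adjusted p = 0.0557), or by -0.73 in the 16 mice with limma adjusted p = 0.107. As Dpp4 was tested only through NormMg-LFD, its highest group, the selection favours both of its differences from that group. Nothing is read from how often the difference of NormMg-HFD passed, which was in 9 of 27 alternatives, with limma adjusted p from 0.0226 to 0.188. The same ratio passed without NormMg-LFD replicate 4 (-0.998; limma, adjusted p = 0.0226) and without LowMg-HFD replicate 4 (limma, adjusted p = 0.0332). It also passed without NormMg-HFD replicates 2 and 5 (limma, adjusted p = 0.0341 and 0.0236) and without LowMg-LFD replicates 1 and 2 (limma, adjusted p = 0.0470 and 0.0493), each left out alone.

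Dlk1 was described without the main test. It was at 0.46, 0.61, 1.41 and 0.77 FPKM in NormMg-LFD, at 0.23, 0.40, 0.15, 0.39 and 0.31 FPKM in LowMg-LFD, at 0.30, 0.30, 0.47, 0.58 and 0.20 FPKM in NormMg-HFD and at 0.02, 0, 0.40, 1.47 and 0.31 FPKM in LowMg-HFD. All NormMg-LFD mice exceeded all LowMg-LFD mice, a separation that 1.13% of the 24237 genes showed, in either direction, in this comparison. The highest values, in LowMg-HFD replicate 4 and NormMg-LFD replicate 4, came from the pair of libraries with the highest median FPKM over all genes. In a fit of all 24237 genes without a minimum it was called in no comparison, and its log2 difference between LowMg-LFD and NormMg-LFD was -0.46 ± 0.21 (SE; limma, unadjusted p = 0.0418 and adjusted p = 0.913). The number of reads behind these low values is unknown.

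Within the diet groups, the markers did not vary as 1 block. For each mouse the deviation of log2(FPKM + 1) from its group's mean was taken, and the 21 pairs of the 7 tested markers had Pearson correlations from -0.31 to 0.86 over the 19 mice, with 4 pairs over 0.5 and 6 below 0. All values of a mouse come from 1 library, so these correlations are descriptions. The platelet-derived growth factor receptors were the closest pair, with Pearson r = 0.86 and Spearman rho = 0.85, and r = 0.79 without the 2 mice farthest from the median of Pdgfra. The largest deviations of Pdgfra were in LowMg-LFD replicate 1 (-0.64), LowMg-HFD replicate 4 (-0.54), NormMg-LFD replicate 4 (0.50) and LowMg-LFD replicate 4 (0.48). The part of other tissues' transcripts in these correlations was not tested. Ly6a followed both, with r = 0.70 for Pdgfra and 0.71 for Pdgfrb, and Cd34 followed Ly6a at 0.58. Pi16 had r = -0.11 with Pdgfra and -0.31 with Pdgfrb, and its closest markers were Thy1 at 0.39 and Cd34 at 0.34. Dpp4 and Pi16, both markers of the outer connective-tissue progenitors, had r = -0.01. Over the 18 mice without LowMg-HFD replicate 4, Pi16 had r = -0.35 with Pdgfra, -0.59 with Pdgfrb and 0.56 with Thy1, 5 pairs were over 0.5 and 4 below 0.

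**Figure D3:**
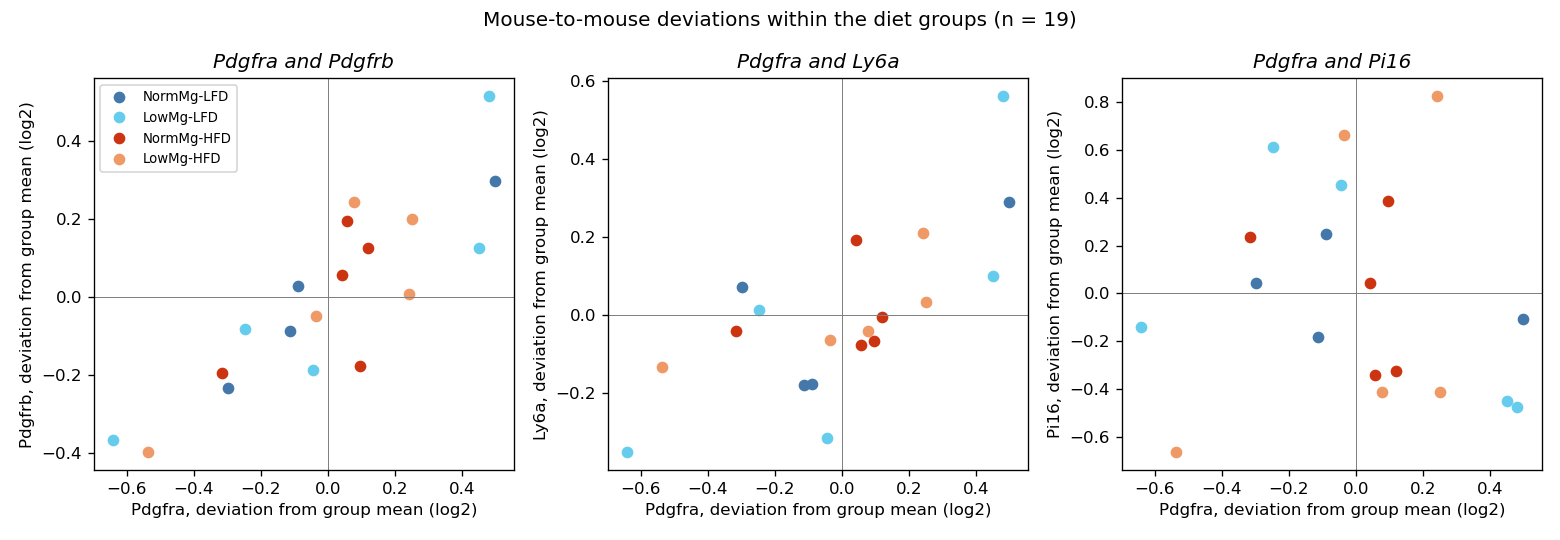
Deviation of each mouse from its group's mean on the log2(FPKM + 1) scale for Pdgfra (horizontal axes) against Pdgfrb, Ly6a and Pi16 (vertical axes), with 1 point per mouse coloured by diet group (n = 19). Points follow a rising diagonal for Pdgfrb (r = 0.86) and Ly6a (r = 0.70) and show no such diagonal for Pi16 (r = -0.11, or -0.35 without LowMg-HFD replicate 4).

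Outside the markers, the 3 tested genes most like each of them were found by the same measure. Pdgfra was closest to Mapk1ip1l, Tor4a and St3gal1 (r = 0.89, 0.88 and 0.87), and Pdgfrb to Sesn1, Tmem55b and Pdcd6ip (r = 0.87, 0.86 and 0.86). Ly6a was closest to Rps3a1, Man2a1 and Rps4x (r = 0.88, 0.88 and 0.87), of which Rps3a1 and Rps4x encode ribosomal proteins. Pi16 was closest to Mknk2, Pcsk6 and Gna11 (r = 0.86, 0.85 and 0.84), and Thy1 to Ube2g2, Zfyve21 and Gm42927 (r = 0.81, 0.81 and 0.79). Cd34 was closest to A430105I19Rik, Arhgef3 and Medag (r = 0.83, 0.80 and 0.80). Medag is known as an adipogenesis gene. Dpp4 had the lowest such values, with Wdr37, Tsc22d3 and Arhgap21 (r = 0.74, 0.73 and 0.72).

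The wider stromal programme was read from lists of related genes, whose counts stand beside the shares of all tested genes: 24.6% rose and 12.8% fell in NormMg-HFD against NormMg-LFD, 5.58% and 12.9% in LowMg-HFD against NormMg-HFD, and 12.4% and 3.51% in LowMg-HFD against LowMg-LFD. The same shares in the 16 mice were 22% and 12.3%, 5.65% and 10.7%, and 13.3% and 3.26%. Some called genes of these lists met the minimum only through the groups in which they were high, Krt19 and Myh11 through NormMg-LFD, Cspg4 and Fcgr1 through NormMg-HFD, Ebf2 through the LFD groups and Icam1 through the HFD groups, so that their differences from those groups are favoured by the selection and the list counts that hold them are descriptions. Of 10 further genes of DPP4-positive interstitial progenitors, 6 were tested. With the HFD at normal Mg2+, 2 rose: Fn1, fibronectin, from 143 to 250 FPKM (log2 difference 0.79; limma, adjusted p = 0.00923) and Sema3c, a semaphorin, from 18.4 to 31.4 FPKM (0.74; limma, adjusted p = 6.64e-04). Fn1 fell from that level to 146 FPKM in LowMg-HFD (-0.81; limma, adjusted p = 0.0123), and no gene of the list beyond these was called in the 4 comparisons of diets. Fn1 is also made by many other cells. In the 16 mice these counts were the same, and 2 genes rose in LowMg-HFD against LowMg-LFD, where none was called before.

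All 10 genes of committed preadipocytes were tested, and they did not move one way. In this whole tissue they summed to 13126 to 19109 FPKM, against 5564 to 18996 FPKM for the adipocyte markers. Mature fat cells can thus contribute to the list, and its values are not read as those of preadipocytes alone. With the HFD at normal Mg2+, 2 rose and 4 fell, with a median log2 difference of -0.00052. Col4a1, a basement membrane collagen, rose by 0.71 (limma, adjusted p = 4.36e-05) and Icam1, an adhesion molecule, by 0.78 (limma, adjusted p = 3.11e-04). Aoc3, an amine oxidase of mature fat cells too, fell by 0.84 (limma, adjusted p = 5.20e-04) and Apoe, a lipid carrier protein, fell by 1.03 (limma, adjusted p = 5.74e-05). In LowMg-HFD against NormMg-HFD, 1 rose, Aoc3 (0.62), and 1 fell, Col4a1 (-0.36). In LowMg-HFD against LowMg-LFD there was 1 gene in each direction. Over the 16 mice, 3 rose and none fell between the HFD groups, so that Col4a1 was not called there, and 1 rose and none fell in LowMg-HFD against LowMg-LFD.

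Of 7 genes of adipogenesis-regulatory stromal cells, which restrain fat cell formation, 5 were tested, and 2 rose and 2 fell with the HFD at normal Mg2+. Abcg1, a cholesterol exporter that macrophages use as well, rose by 1.36 (limma, adjusted p = 1.22e-04) and fell by 0.82 in LowMg-HFD against NormMg-HFD (limma, adjusted p = 0.0132). Fmo2, a monooxygenase, took the opposite course, with -0.85 and 0.67. Gdf10 fell by 0.72 and Mgp, matrix Gla protein, rose by 0.88 with the HFD, and neither was called between the HFD groups. At low Mg2+ none of the 5 was called. Among the 16 mice, 1 rose and 1 fell with the HFD at normal Mg2+, none rose and 1 fell between the HFD groups, and 1 rose in LowMg-HFD against LowMg-LFD.

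Of 10 transcriptional regulators of preadipocytes, 5 were tested. Cebpb, an early factor of fat cell differentiation, rose from 18.5 ± 2.91 to 42.5 ± 8.20 FPKM with the HFD at normal Mg2+ (1.15; limma, adjusted p = 8.98e-05), and LowMg-HFD stood at 28.2 ± 4.32 FPKM (-0.57; limma, adjusted p = 0.0328). Ebf1 and Ebf2, transcription factors of the preadipocyte and fat cell, fell by 0.85 and 0.89 with the HFD, and Ebf1 was higher by 0.51 in LowMg-HFD than in NormMg-HFD (limma, adjusted p = 0.0176). In LowMg-HFD against LowMg-LFD, 2 of the 5 rose and 1 fell. In the 16 mice, 1 rose and none fell between the HFD groups, and 2 rose and none fell in LowMg-HFD against LowMg-LFD. Of the 4 ligands of the platelet-derived growth factor receptors, 2 were tested, and Pdgfb rose by 0.42 with the HFD at normal Mg2+ (limma, adjusted p = 0.0279). Neither ligand was called between the HFD groups or in LowMg-HFD against LowMg-LFD. With the 16 mice neither was called with the HFD at normal Mg2+, and 1 rose in LowMg-HFD against LowMg-LFD.

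The 10 pan-fibroblast genes had larger median differences than the markers, but not every gene did. Dcn (-0.11 and -0.11) and Dpt (0.29 and -0.25) were called neither with the HFD at normal Mg2+ nor between the HFD groups. With the HFD at normal Mg2+, 7 rose and 1 fell, with a median log2 difference of 0.99, and in LowMg-HFD against NormMg-HFD 1 rose and 7 fell, with a median of -0.72. The fibrillar collagen gene Col3a1 averaged 285 FPKM in NormMg-LFD, 888 FPKM in NormMg-HFD and 354 FPKM in LowMg-HFD (1.62 and -1.31; limma, adjusted p = 2.12e-06 and 6.61e-04). Lum, a collagen-binding proteoglycan, averaged 28.0, 120 and 44.7 FPKM in the same groups (2.04 and -1.40), Col1a1 57.1, 161 and 68.5 FPKM (1.48 and -1.22) and Pcolce, an enhancer of procollagen processing, 38.1, 81.1 and 43.6 FPKM (1.10 and -0.90). In LowMg-HFD against LowMg-LFD 4 rose and none fell, and for 2, Lum and Col3a1, the Mg2+ effect was called as different between the diets. Of the list, 5 genes fell in the 16 mice between the HFD groups, with a median of -0.53, and none of the 8277 genes tested there was called for the interaction. The matrix genes and the surface markers of the stroma were thus side by side with medians of 0.99 and 0.29 for the HFD effect and -0.72 and -0.29 for the Mg2+ effect on the HFD. The difference between these medians was not tested.

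**Figure D4:**
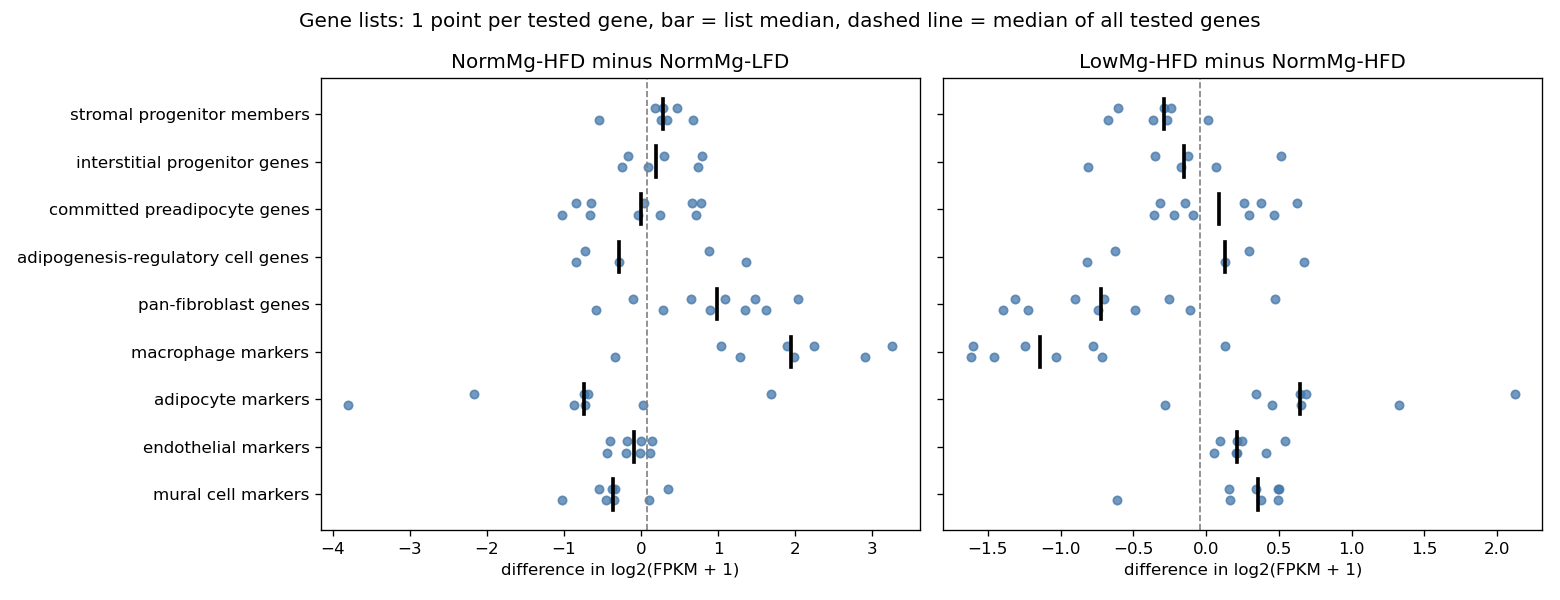
Difference in log2(FPKM + 1) (horizontal axes) for the tested genes of 9 lists, for NormMg-HFD minus NormMg-LFD and LowMg-HFD minus NormMg-HFD; each point is 1 gene, bars are list medians and dashed lines the median of all 8336 tested genes. Medians of the stromal progenitor markers (0.29 and -0.29) lie nearer to 0 than those of pan-fibroblast genes (0.99 and -0.72) and macrophage markers (1.94 and -1.14). Those of interstitial progenitor genes (0.20 and -0.15), committed preadipocyte genes (-0.00052 and 0.09) and endothelial markers (-0.10 and 0.21) lie nearer still.

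Genes of other cell types moved with the same groups. Of 8 macrophage markers, 7 rose with the HFD at normal Mg2+ and 7 fell in LowMg-HFD against NormMg-HFD, with Adgre1, the gene of a macrophage surface receptor, at 13.9, 113 and 39.9 FPKM in NormMg-LFD, NormMg-HFD and LowMg-HFD. Lyz2, lysozyme, differed by 1.90 and -1.04 in these comparisons, Itgam by 1.99 and -1.25 and Csf1r, the receptor for colony-stimulating factor 1, by 1.28 and -0.77. The summed level of the list was 462 to 567 FPKM in NormMg-LFD, 349 to 659 FPKM in LowMg-LFD, 1689 to 2497 FPKM in NormMg-HFD and 565 to 1475 FPKM in LowMg-HFD, and no marker was at 0. In LowMg-HFD against LowMg-LFD 5 of the 8 rose, and 1, Adgre1, was called for the interaction. The counts of these 3 comparisons were the same in the 16 mice. Of 8 adipocyte markers, 1 rose and 6 fell with the HFD at normal Mg2+, 6 rose in LowMg-HFD against NormMg-HFD, and 1 rose and 3 fell in LowMg-HFD against LowMg-LFD (1 and 2 in the 16 mice). Cfd, adipsin, differed by -3.80 and 2.12, Retn by -2.16 and 1.33, Lipe by -0.87 and 0.65 and Pnpla2 by -0.69 and 0.64, and the summed level was 12542 to 16814 FPKM in NormMg-LFD, 12454 to 18996 FPKM in LowMg-LFD, 5564 to 8394 FPKM in NormMg-HFD and 8907 to 12964 FPKM in LowMg-HFD. Whether these shifts in other cells' transcripts, which FPKM sets against one another within a library, took part in the marker levels was not tested.

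Vessel lists held fewer called genes. Cd34 is also an endothelial gene and Pdgfrb a mural cell gene. Of 8 endothelial markers, Egfl7 and Kdr fell with the HFD at normal Mg2+ (-0.45 and -0.41) and rose in LowMg-HFD against NormMg-HFD (0.41 and 0.54), and 1 rose in LowMg-HFD against LowMg-LFD, a call not made in the 16 mice. The endothelial sum was 433 to 504 FPKM in NormMg-LFD, 418 to 495 FPKM in LowMg-LFD, 393 to 499 FPKM in NormMg-HFD and 460 to 569 FPKM in LowMg-HFD. Of 8 mural cell markers, Rgs5 and Myh11 fell with the HFD at normal Mg2+ (-0.54 and -1.02), Myh11 with the selection through NormMg-LFD. Mcam rose and Cspg4 fell in LowMg-HFD against NormMg-HFD (0.49 and -0.61), Cspg4 with the selection through NormMg-HFD, and 1 rose in LowMg-HFD against LowMg-LFD. Their sum was 372 to 406 FPKM in NormMg-LFD, 269 to 382 FPKM in LowMg-LFD, 265 to 387 FPKM in NormMg-HFD and 341 to 478 FPKM in LowMg-HFD. Of the mesothelial markers only Krt19 was tested, and it fell by 1.86 with the HFD at normal Mg2+ (limma, adjusted p = 0.00278), again with the selection through NormMg-LFD. Cela1, the only exocrine pancreas gene tested, was called nowhere in the 19 mice and was higher by 1.26 with the HFD at normal Mg2+ in the 16, and no T cell or epididymis gene met the minimum. The T cell gene of highest level was Trac, with 1.78 ± 0.825 FPKM in NormMg-LFD and 8.83 ± 2.31 FPKM in NormMg-HFD, and the epididymis gene of highest level was Crisp1, with 18.3 ± 40.8 FPKM in LowMg-LFD and at most 0.400 FPKM on average in the other groups. No gene of any list was called in LowMg-LFD against NormMg-LFD.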

How the data were processed

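RNA sequencing of eWAT from 19 mice was read from a deposited table of FPKM values per gene (24237 genes used). Per the labels and methods, the authors sequenced 50 bp single-end reads, about the same number per library, mapped them to the GRCm38 mouse transcriptome with HISAT and Bowtie2 and estimated FPKM with RSEM 1.2.31. The authors also deposited the count of reads and the percent mapped of each library, from their alignment statistics. FPKM holds no counts, so the depth behind a single gene's value is unknown, and a gene's value depends on what else its library holds. RSEM shares reads between similar transcripts. Genes on the opposite strand overlap exons of Pdgfra, Cd34, Pi16 and Dpp4, and whether the counting used strand is not given in the sources used here.

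From these values, log2(FPKM + 1) was computed, and all 4 groups were fitted in a single limma model (version 3.58.1, under R 4.3.3) whose variance prior followed mean expression, for genes with a group mean above 8 FPKM and at least 4 mice of that group above it (8336 genes). Benjamini–Hochberg adjustment covered all tested genes. Ratios to Pdgfra were tested in the same way over 8335 genes. The fit was tested on simulated data. The unit of replication was the mouse, as each library came from 1 mouse. Fold changes on this scale understate those of low genes such as Dpp4. Alternatives were a pseudocount of 0.1, a minimum of 1 FPKM or none, median centring, quantile normalisation, no intensity trend, only the groups compared, the replicate number as a block, 18 mice without LowMg-HFD replicate 4 at a minimum of 3 on the log2 scale (8808 genes), each mouse left out in turn and, chosen after seeing the data, 16 mice (with 3 NormMg-LFD mice, all 3 had to exceed the minimum where that group was used).

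The markers and gene lists were chosen with earlier results of these data known. All 8 markers are named. Of every other list up to 4 genes are named, those with the lowest adjusted p among the called for LowMg-HFD against NormMg-HFD, then for NormMg-HFD against NormMg-LFD, or the gene of highest mean FPKM where none was called. Further genes are named only to describe libraries or limits. Figures were drawn with matplotlib 3.10.9.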

Additional observations from a re-analysis of the deposited data

Results flagged for a closer look

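Of 32 sets of values (8 markers in 4 groups, on the log2 scale), 3 held a mouse far from the rest of its group by Dixon's criterion, which chance alone meets in about 1 in 20 groups. Pdgfra was low in NormMg-HFD replicate 5, at 14.8 FPKM where the other 4 mice had 19.3 to 20.4 FPKM. Dpp4 was low in LowMg-HFD replicate 1, at 4.55 FPKM, below 6.55 to 7.20 FPKM in the others. Ly6a was high in NormMg-HFD replicate 3, at 161 FPKM, above 134 to 140.5 FPKM in the others.

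Signals from outside the stromal comparisons came from other tissues. The exocrine pancreas markers summed to 1415 FPKM in NormMg-LFD replicate 3, and the epididymis markers to 128 FPKM in LowMg-LFD replicate 4. No marker's Mg2+ effect was called as different between the diets.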

How the results depend on the processing

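The marker differences, the ratio of Dpp4 to Pdgfra and the counts of calls were recomputed under up to 29 alternatives, the gene lists only in the 16 mice. The count of 1 marker called for NormMg-HFD against NormMg-LFD became 0 with no minimum, 2 without the intensity trend, 3 with only the compared groups fitted (Pdgfrb, Thy1 and Ly6a), 2 with the replicate number as a block (Pdgfrb, adjusted p = 0.0281, and Thy1, 0.0412) and 0 to 3 when single mice were left out. Median centring and quantile normalisation gave 1 call each, Dpp4 in place of Pdgfrb. For LowMg-HFD against NormMg-HFD the count of 0 became 2 with only the compared groups and 0 to 1 without single mice. For LowMg-HFD against LowMg-LFD it became 1 in the 18 mice, 1 in the 16 mice and 0 to 1 without single mice. Relative to Pdgfra, NormMg-HFD against NormMg-LFD became 1 without the trend, 1 with only the compared groups, 1 in the 18 mice and 0 to 1 without single mice. The count was 0 under every alternative run for LowMg-LFD against NormMg-LFD, for the interaction and for the other ratios to Pdgfra. The causes were not tested.

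The replicate numbers did not pair the mice: of 27 pairs that share a number, 5 deviated together with r over 0.1 (range -0.18 to 0.34), and 3 of 19 mice correlated best with their own number.

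Some directions turned. For LowMg-LFD against NormMg-LFD, Pdgfra was 0.0468 with median centring, 0.0628 with quantile normalisation, 0.0206 with the replicate block and -0.14 to 0.15 without single mice, Thy1 was 0.00574 with quantile normalisation and -0.28 to 0.14 without single mice, and Ly6a was -0.11 in the 16 mice and -0.0536 to 0.18 without single mice. For LowMg-HFD against LowMg-LFD, Thy1 was -0.000554 with median centring, -0.0489 with quantile normalisation and -0.14 to 0.28 without single mice, Dpp4, 0.19 as reported, was -0.16 with quantile normalisation, Pdgfra was 0.0512 in the 18 mice, 0.17 in the 16 mice and -0.24 to 0.0512 without single mice, Ly6a was 0.0172 in the 18 mice, 0.16 in the 16 mice and -0.10 to 0.12 without single mice, and Pi16 was 0.0950 in the 18 mice and -0.28 to 0.0950 without single mice. For LowMg-HFD against NormMg-HFD, Dpp4 was -0.12 to 0.19 without single mice. The interaction of Pdgfrb was 0.0549 in the 18 mice, 0.21 in the 16 mice and -0.14 to 0.0836 without single mice, and that of Cd34 was 0.10 in the 16 mice and -0.17 to 0.0029 without single mice. Over all genes, 1542, 3114, 1329 and 104 calls for LowMg-HFD against NormMg-HFD, NormMg-HFD against NormMg-LFD, LowMg-HFD against LowMg-LFD and the interaction ranged from 921 to 1679, 2627 to 4033, 725 to 1495 and 0 to 482.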
